A study of Mus musculus with 7 samples.

Results

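The odorant receptor genes of MIN6 cells, an insulin-secreting line derived from a mouse beta-cell tumour, were followed on 7 single-colour expression arrays. The array carried 1107 non-control probes for 1080 genes whose RefSeq symbol begins with Olfr, out of 56605 non-control probes. The receptors described here were chosen by measured signal: a probe was kept when the scanner software marked its spot as well above background on at least 1 array, which left 199 probes of 197 genes. The mark itself is therefore given below as a description wherever only kept probes are counted. The other 908 receptor probes were marked on no array. The vehicle group held 3 arrays of cells kept with phosphate-buffered saline, and the group treated with MPE, a polysaccharide extract of Maidong, held 4 arrays, all after 3 days. Cells of passage 20 to 30 were used for both groups, in medium with serum, antibiotics and 2-mercaptoethanol. The MPE concentration used for the arrays is not given in the labels, which list concentrations up to 50 µg/mL for the wider work. The labels also do not say whether the replicates were separate cultures, so p-values cover only sample-to-sample spread, part of which may be technical. The 7 arrays shared 1 slide, the vehicle arrays in its row 1 and the MPE arrays in its row 2, and the effects of slide row and of treatment cannot be told apart.

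Odorant receptors are G protein-coupled receptors that form the largest gene family of the mouse genome. A mature olfactory sensory neuron expresses a single receptor allele and signals through the G protein Golf, adenylate cyclase 3 and a cyclic nucleotide-gated channel. A few members are also known from other tissues, where they respond to fatty acids, metabolites or peptides, and roles of some have been described in pancreatic islets.

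For 29 of the 35 receptors that were well above background on every array, the RefSeq tables (build GRCm38.p6) held the 250 bases before and 50 bases after the annotated start. The windows of Olfr1466, Olfr1368 and Olfr544 are shown because these were the 3 receptors with a signal above 1000 on every array. They read 5′ to 3′ on the gene's strand, and capitals mark a match, on either strand, to the homeodomain-type letters TAATTA or TAATGA that occur in many receptor promoters.
Olfr1466 (chr19:13341510-13341809, plus strand): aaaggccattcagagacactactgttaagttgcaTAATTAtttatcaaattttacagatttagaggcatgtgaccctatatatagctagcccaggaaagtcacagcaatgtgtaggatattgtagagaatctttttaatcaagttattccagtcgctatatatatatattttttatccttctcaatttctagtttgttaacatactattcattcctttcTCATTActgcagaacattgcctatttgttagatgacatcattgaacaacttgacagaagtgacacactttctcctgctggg
Olfr1368 (chr13:21143006-21143305, minus strand): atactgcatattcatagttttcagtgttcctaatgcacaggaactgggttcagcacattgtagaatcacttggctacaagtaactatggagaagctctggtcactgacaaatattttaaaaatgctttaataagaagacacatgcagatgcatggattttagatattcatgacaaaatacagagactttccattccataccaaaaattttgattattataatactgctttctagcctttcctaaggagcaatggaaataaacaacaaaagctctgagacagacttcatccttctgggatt
Olfr544 (chr7:102488258-102488557, minus strand): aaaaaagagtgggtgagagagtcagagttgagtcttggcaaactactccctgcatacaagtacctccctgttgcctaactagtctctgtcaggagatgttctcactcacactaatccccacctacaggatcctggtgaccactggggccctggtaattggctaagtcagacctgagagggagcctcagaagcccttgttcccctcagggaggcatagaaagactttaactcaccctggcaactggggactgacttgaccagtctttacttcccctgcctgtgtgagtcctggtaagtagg
The Olfr1466 window held TAATTA, which reads the same on both strands, and TAATGA on the opposite strand, printed as TCATTA. The Olfr1368 and Olfr544 windows held neither. TAATTA was present in 18.6% of the 948 receptor windows of the table and in 5.29% of all 32851 windows, and TAATGA in 28.8% and 9.78%. Of the 29 windows of consistently marked receptors, 3 held TAATTA and 5 held TAATGA. The palindromic O/E (Olf1/EBF) motif, searched on both strands, was in 5 of the 948 receptor windows (0.527%), in 0.904% of all windows and in 0 of the 29. In 72.4% of receptor windows, against 5.83% of all windows, the annotated start was itself the letters ATG, so that many of these windows lie before a start codon and may not lie before the transcript's start. Among the 3 windows shown, the annotated start was ATG for Olfr1466 and Olfr1368 and was not for Olfr544. A match is a description of these letters and does not show binding.

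Few odorant receptors gave signal on every array. Probes of 35 receptors were well above background on all 7 arrays, which is 3.16% of the receptor probes, against 49.1% of the other non-control spots. Of the remaining members, 98 probes were marked on MPE arrays only, 47 on vehicle arrays only, and 19 on arrays of both groups without reaching all 7. Most members rested on little: 122 of the 199 probes were marked on 1 array only, 19 on 2 arrays and 6 on 3 arrays. The mark separates low signals. Across the vehicle arrays the lowest signal of any spot well above background was 12.6 to 15.5, and across the MPE arrays 20.6 to 24.4. Receptors marked on no array had signals of up to 13.5 to 16.2 on the vehicle arrays and 20.3 to 22.0 on the MPE arrays. Members marked on a single array began at 13.4 on vehicle 2 and at 22.6 on MPE 2, just inside the rule. Saturated receptor spots were absent from all 7 arrays.

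The receptors marked on all 7 arrays spanned a wide range of signal. Signals of different probes are not compared with each other, because probes differ in how well they bind. Probe sequences were not at hand, so whether a probe also binds other transcripts could not be looked at. A high signal, such as that of Olfr1466, is therefore a signal of the probe and no measure of the receptor's transcript level. Olfr1466 gave processed signals of 74307, 70594 and 66306 scanner units on the vehicle arrays and 74517, 74796, 66522 and 62301 on the MPE arrays. The groups overlapped, and the MPE level was 0.884 times the vehicle level (95% interval 0.719 to 1.09). Olfr1368 gave 1972, 1985 and 2009 with vehicle and 2222, 2219, 1977 and 2039 with MPE, again with overlap. Its log2 difference after scaling was -0.07 (SE 0.10). Olfr544, a receptor for azelaic acid known from pancreatic alpha cells and fat tissue, gave 1967, 2123 and 1601 with vehicle and 2120, 2152, 1438 and 1708 with MPE. Vehicle 3 and MPE 3 were lowest in their groups, and the MPE level was 0.871 times the vehicle level (0.603 to 1.26). With an array left out, its log2 difference of -0.20 ran from -0.39 (without vehicle 3) to -0.04 (without MPE 3).

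**Figure D1:**
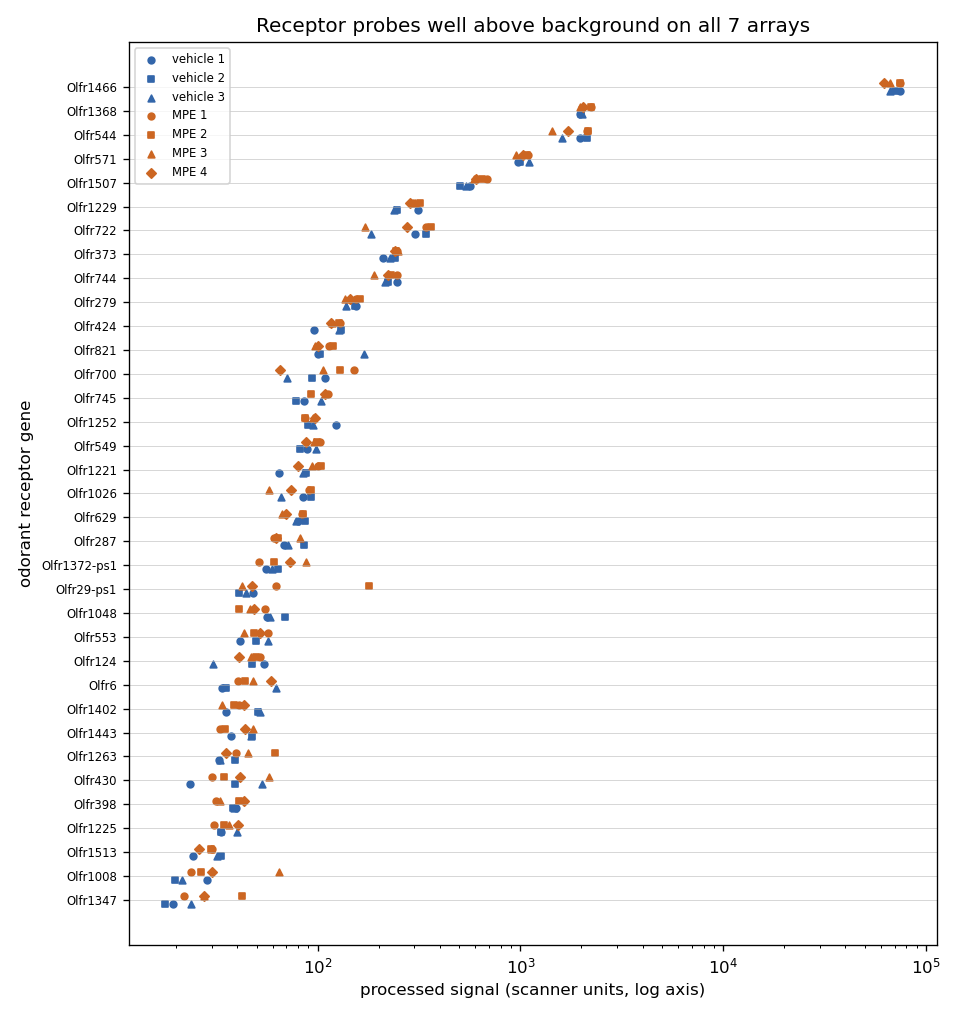
Processed signal in scanner units (log axis) of the 35 odorant receptor probes well above background on all 7 arrays, 1 row per gene and 1 point per array, with vehicle arrays blue and MPE arrays orange. In nearly every row the orange and blue points overlap; the single MPE point for Olfr29-ps1 that lies apart is at 178.7.

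Next in the same set, Olfr571 gave 974, 994 and 1108 with vehicle and 1086, 1073, 947 and 1026 with MPE. Olfr1507, known as MOR28 and much studied for how a neuron chooses its receptor, gave 562, 503 and 536 with vehicle and 684, 646, 590 and 603 with MPE. All 4 raw MPE signals of Olfr1507 lay above the vehicle signals, while the log2 difference after scaling each array to its 75th percentile was 0.08 (SE 0.11). Olfr722 gave 302, 343 and 184 with vehicle and 343, 363, 170 and 275 with MPE. In each group the array numbered 3 was lowest for this receptor. The other receptors above 100 on every array were Olfr1229, Olfr373, Olfr744 and Olfr279. Olfr424, Olfr821, Olfr700, Olfr745, Olfr1252, Olfr549 and Olfr1221 stood above 100 on some arrays and below on others, and so did the transcribed pseudogene Olfr29-ps1, which was at 178.7 on MPE 2 and at 40.8 to 62.1 on the other 6. The remaining 17 stayed below 100 on every array: Olfr1026, Olfr629, Olfr287, Olfr1048, Olfr553, Olfr124, Olfr6, Olfr1402, Olfr1443, Olfr1263, Olfr430, Olfr398, Olfr1225, Olfr1513, Olfr1008, Olfr1347 and the pseudogene Olfr1372-ps1. Olfr124, also called SR1 and known as a broadly tuned receptor, ran from 30.5 to 54.4 with vehicle and from 41.1 to 51.9 with MPE.

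No receptor among the 35 differed between the groups after adjustment. By limma's moderated test across all 22060 genes, 11 stood higher and 24 lower with MPE; log2 differences ran from -0.51 to 0.47, and their median was -0.11, against -0.02 over all genes. Without MPE 3 that median was -0.03, and with scaling to the array median it was -0.18, where the median of all genes was -0.09. Each adjusted p was 1.00. At an unadjusted limma p under 0.05 there were 0 higher and 2 lower, against 0.757% and 3.35% of all genes. These were Olfr1048 (log2 difference -0.51, SE 0.15) and Olfr287 (-0.32, SE 0.12). Olfr1048 signals were 56.0, 68.9 and 58.2 with vehicle and 55.2, 41.1, 46.5 and 48.8 with MPE. After scaling, the MPE values of 1 of the 35 receptors were all below its vehicle values and those of 0 receptors all above, against 3.36% and 1.17% of all genes tested. The 95% interval lay inside 2-fold in both directions for 32 receptors and inside 1.5-fold for 17. The direction went with the place of the probe. Of the 17 receptors in high rows of the array (193 to 384), 15 were lower with MPE (median -0.20), and the 18 in low rows (1 to 192) split into 9 higher and 9 lower (median -0.00). Over all genes tested with 1 spot, 63.9% were lower in high rows (median -0.03) and 51.0% in low rows (median -0.00). Among genes marked on all 7 arrays with signals below 100 on each, 70.9% were lower in high rows (median -0.08) and 53.3% in low rows (median -0.01). The receptors of that kind had medians of -0.23 in high rows (n = 10) and 0.02 in low rows (n = 7). Whether the receptors differ from other genes in this was not tested.

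Of the 9 receptors on the array that are known for roles outside the nose, Olfr544 alone was marked on every array. Olfr78, a receptor for short-chain fatty acids in blood vessels and kidney, was at 2.98, 2.80 and 3.52 with vehicle and at 4.68, 4.66, 10.9 and 75.5 with MPE. Its mark rested on MPE 4, and the spot lies in row 13 of 384. Olfr15, which has been described in beta cells as a receptor for octanoic acid, stood between 6.31 and 14.6 and was marked on no array. Olfr109, described in beta cells as a receptor for an insulin peptide, stood between 2.77 and 5.20 and was marked on no array. Olfr16, Olfr558, Olfr734, Olfr1393 and Olfr2 were also marked on no array. With probes this close to background, a low transcript level cannot be told apart from a probe that binds poorly.

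Of 24 genes of odorant signal transduction and receptor trafficking, 13 were marked on all 7 arrays and 6 on none, where 49.1% of other non-control spots were marked on all 7. The general stimulatory G protein gene Gnas gave 219908 to 231409 with vehicle and 222309 to 242026 with MPE. The olfactory G protein gene Gnal was near the threshold, at 19.1, 16.9 and 23.8 with vehicle and 20.3, 14.7, 23.1 and 17.6 with MPE, and was marked on the vehicle arrays only. Adenylate cyclase 3 (Adcy3), the channel subunit Cnga4, the chloride channel Ano2, the exchanger Slc24a4, the receptor transporter Rtp1 and Stoml3 were marked on no array. Another receptor transporter, Rtp4, was marked on all 7, at 1659 to 2458 with vehicle and 2065 to 2799 with MPE. In the 17 genes tested the log2 differences had a median of -0.03 (6 higher, 11 lower), and 0 passed limma's adjusted threshold. At an unadjusted limma p under 0.05 there were 2, both lower, against 3.35% of all genes lower and 0.757% higher. They were the channel subunits Cngb1 (-0.28, SE 0.08) and Cnga2 (-0.39, SE 0.13). The Cnga2 probe passed the filter only through the 3 vehicle arrays, at signals of 18.3 to 27.6 over all arrays, so nothing is read from its p.

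Of 10 genes known from receptor choice in olfactory neurons, 8 were marked on all 7 arrays: the transcription factors Lhx2 and Atf5, the cofactor Ldb1, the histone demethylase Kdm1a, the stress kinase Eif2ak3, the chromatin regulator Bptf, the heterochromatin protein Cbx5 and the lamin B receptor Lbr. Lhx2 gave 1805, 1812 and 2080 with vehicle and 2118, 2128, 2418 and 2036 with MPE. The factors Ebf1 and Emx2 were marked on no array. Of other non-control spots, 49.1% were marked on all 7. Each gene on the lists was counted by its probe with the highest mean signal, so this share of spots is not a like comparison. Differences among the 8 ran from -0.06 to 0.06 with a median of 0.00, and 0 passed limma's adjusted threshold, with 0 at an unadjusted p under 0.05. Of the cell line's own markers, 10 of 10 beta-cell genes were marked on all 7 arrays, with Ins1 at 297388 to 330848 with vehicle. Of 12 markers of olfactory sensory neurons, Gap43, which is shared with many neurons and endocrine cells, alone was marked on all 7. Omp, the olfactory marker protein, stood at 40.0, 24.4 and 24.0 with vehicle and 23.7, 29.9, 22.9 and 32.2 with MPE. Of these 12 markers, 6 were marked on no array, and of the 5 tested none passed, the smallest adjusted limma p being 1.00.

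With the software's own mark, the number of receptor probes above background did not differ beyond the spread between arrays, while their place on the array did. Counts were 68, 67 and 78 with vehicle and 71, 77, 70 and 74 with MPE, which is 71 ± 6.08 (SD, n = 3) and 73 ± 3.16 (SD, n = 4). The difference of 2 probes gave p = 0.6 in a two-sided exact permutation test over the 35 splits of the arrays. Its direction turned to -0.75 without Olfr867, Olfr390 and Olfr491 and to -53.6 with the software's positive-and-significant flag (exact p = 0.0286). With 1 signal threshold for all arrays it was 21.3 (exact p = 0.0286), so the comparison of counts depends on the flag. In low rows, however, 30, 32 and 37 receptor probes were marked on the vehicle arrays and 50, 53, 51 and 50 on the MPE arrays, with no overlap. In high rows the order turned, with 38, 35 and 41 on the vehicle arrays and 21, 24, 19 and 24 on the MPE arrays. As a share of the 551 receptor probes in low rows and the 556 in high rows, the low-row share minus the high-row share was -0.845 ± 0.479 percentage points (SD, n = 3) with vehicle and 5.30 ± 0.441 (SD, n = 4) with MPE. That difference of 6.14 points gave p = 0.0286 in the two-sided exact permutation test, the smallest it can give here. Without Olfr867, Olfr390 and Olfr491, named beforehand for their signals on the MPE arrays, it was 5.66 points (exact permutation p = 0.0286). For all receptor probes, doubling the one-sided p, a convention chosen after seeing the data, gave an exact p of 0.0571. Within slide columns 1, 2 and 4, which each held 1 array of both groups, the difference was 6.69, 5.79 and 5.42 points.

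**Figure D2:**
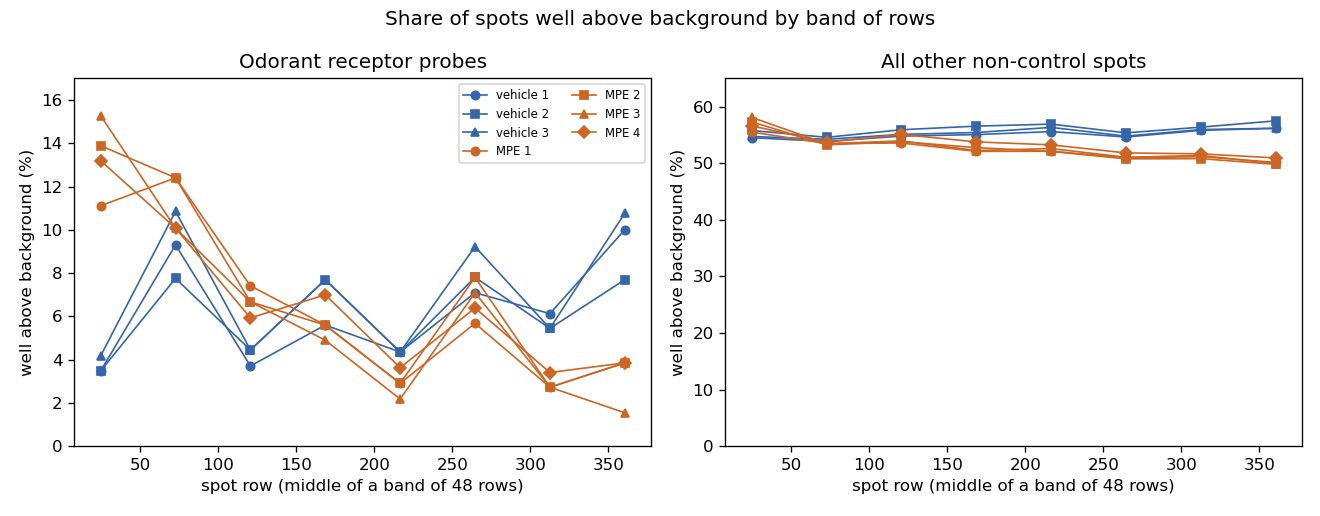
Share of spots well above background (%) in 8 bands of 48 rows, plotted at the middle row of each band, for the odorant receptor probes (left) and all other non-control spots (right), 1 line per array. In the first band the MPE arrays lie above the vehicle arrays for receptors, and in the last band below them, while the share for other spots lies between 49.8% and 58.1%.

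Place showed most plainly in probes marked in a single group. Of the 98 receptor probes marked on MPE arrays only, 94 (95.9%) lay in low rows, and 47 lay in the first 48 of the 384 rows. By bands of 48 rows their numbers were 47, 18, 23, 6, 1, 2, 0 and 1. These 98 are 8.85% of the receptor probes, against 4.71% of other non-control spots marked on MPE arrays only, of which 92.8% lay in low rows. Among receptor probes marked on no vehicle array, 94 of 508 in low rows (18.5%) and 4 of 498 in high rows (0.803%) were marked on an MPE array. Other spots gave 20.6% and 1.68% on the same measure. The 47 receptor probes marked on vehicle arrays only (4.25%, against 4.68% of other spots) ran the other way, with 15 in low and 32 in high rows, 16 of them in the last 48 rows. Among receptor probes marked on no MPE array, 3.5% in low rows and 6.08% in high rows were marked on a vehicle array, against 8.14% and 13.8% of other spots. Of the receptors marked on all 7 arrays, 18 lay in low and 17 in high rows, and their numbers by band were 2, 9, 2, 5, 3, 8, 4 and 2.

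**Figure D3:**
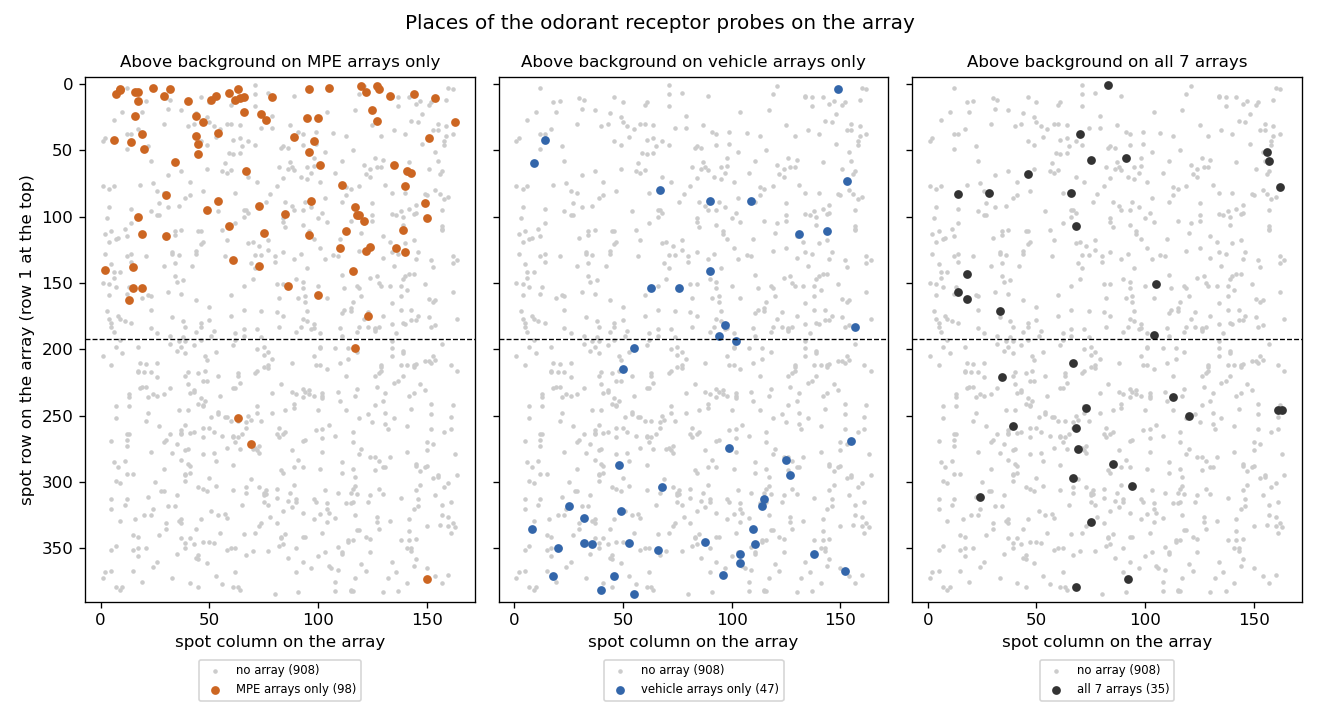
Spot row against spot column of the odorant receptor probes, with those marked on MPE arrays only (98), vehicle arrays only (47) and all 7 arrays (35) in colour and the 908 marked on no array in grey; the 19 marked in both groups on fewer than 7 arrays are not drawn. Above the dashed line between rows 192 and 193 lie 94 of the 98 MPE-only probes and 15 of the 47 vehicle-only probes.

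From the coordinates in the files, the last row of a vehicle array and the first row of the MPE array in the same slide column were 5.30 mm apart, so that the vehicle arrays' high rows and the MPE arrays' low rows face each other. Receptor probes marked on MPE arrays only had median signals of 43.7 to 53.9 on the arrays that marked them, and those marked on vehicle arrays only 16.2 to 29.6. The mark was rarely shared between arrays of a group. Of the 98, 84 were marked on 1 MPE array and 11 on 2. Olfr1204, for example, was at 4.44, 4.46, 142.5 and 76.9 on the MPE arrays, and Olfr938 at 163.1, 4.65, 89.2 and 4.69. Of the 47, 38 were marked on 1 vehicle array, and the brightest, Olfr43, was at 3.31, 3.17 and 2865 with vehicle and at 5.10 to 5.70 with MPE. Olfr39 and Olfr159 were marked on all 3 vehicle arrays and on no MPE array, at 19.0, 22.2 and 19.9 and at 15.4, 16.5 and 19.0. Their MPE signals were 11.8 to 22.1 and 12.2 to 16.7, so the groups overlapped for both.

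Other probes for the same gene did not follow. Of 27 receptor genes with several probes, 5 had a member, and on only 1 of the 12 pairs of gene and array with a marked probe were all probes of the gene marked, for Olfr1372-ps1 on vehicle 1. The Olfr1265 probe in row 21 was at 205.3 on MPE 1, and the other Olfr1265 probe, in row 360, was at 4.56. The 2 probes of Olfr681 were marked on different arrays, the probe in row 76 on MPE 2 at 39.7 and the probe in row 127 on MPE 4 at 44.4. For Olfr75-ps1, the probe in row 4 was at 55.8 on MPE 1 and the probe in row 233 at 4.57. Probe sequences were not used here.

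Olfr867 and Olfr390 were the receptors with a mark on each of the 4 MPE arrays and none with vehicle, a pattern shared by 2 of the other non-control spots (0.00344%), and Olfr491 was marked on 3 of the 4. All 3 receptors lie at the edge of the array, in rows 3, 5 and 4. Of the 2 other spots with that pattern, the probe of BC058796 lies in row 7, among the spots nearest to Olfr390. Olfr867 was at 2.99, 2.85 and 3.57 with vehicle and at 46.7, 37.9, 70.9 and 38.2 with MPE. Olfr390 was at 2.99, 2.83 and 3.57 with vehicle and at 40.3, 41.6, 28.1 and 94.6 with MPE. Olfr491 was at 2.98, 2.83 and 3.57 with vehicle and at 9.26, 63.4, 29.8 and 81.8 with MPE. For each of them every MPE value lay above every vehicle value. This order is not particular to them, because the floor of the signal differed between the groups. The median signal of receptors marked on no array was 2.82 to 3.42 on the vehicle arrays and 4.55 to 5.23 on the MPE arrays. Against the lowest signal marked as well above background on the vehicle arrays, the MPE level was 3.06-fold higher for Olfr867 and 3.01-fold for Olfr390. That limit is not sharp. It was 12.6 to 15.5 on the vehicle arrays, where unmarked receptor spots reached 13.5 to 16.2, so these ratios are not strict lower bounds. Each ratio was taken from group means of scaled log2 signals. For Olfr491 the same ratio was 2.26, and it is no lower bound at all, because MPE 1 was not marked. The scaled log2 signal of Olfr491 on MPE 1 was -5.32, under the vehicle limit of -4.66. These receptors were picked for these values, so the ratios are a description. The fitted log2 differences, 3.75, 3.73 and 3.32, rest on vehicle values at the floor of the scanner software and are no measure of size.

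Dark spots beside them were also marked with MPE, though mostly not on all 4 arrays. Olfr390 and Olfr491 lie on different chromosomes but were neighbours on the array, 34.8 to 38.6 µm apart, while Olfr867 lay 6094 µm away. Among the 6 spots nearest to each, leaving out the picked receptors themselves, 9 distinct spots were not marked on all vehicle arrays. All 9 were marked on at least 1 MPE array, 1 of them on all 4, and 7 of the 9 were marked on no vehicle array. The spot marked on all 4 was BC058796, at 7.24, 3.38 and 4.26 with vehicle and at 88.1, 72.4, 50.1 and 108.4 with MPE. Among other non-control spots in the first 48 rows that no vehicle array marked, 36.3% were marked on an MPE array. The 9 spots lie nearer the edge, in rows 2 to 7, and include a control spot, so this share is not a like comparison. Next to Olfr390, the probe of Esp36, an exocrine gland peptide, was at 2.98, 2.83 and 3.58 with vehicle and at 34.9, 4.71, 30.3 and 130.8 with MPE. The probe of Ccdc141 beside it was at 2.98, 2.83 and 3.58 with vehicle and at 10.2, 4.70, 37.2 and 178.1 with MPE. A control spot next to Olfr867 was at 4.25, 2.85 and 3.56 with vehicle and at 114.5, 23.0, 110.1 and 23.5 with MPE. The bright spot of Atp2a2 beside both Olfr390 and Olfr491 was at 1210, 1171 and 1245 with vehicle and 1316, 1488, 1752 and 1263 with MPE, with MPE above vehicle on every array but by a far smaller factor. Of the 6 receptor genes next to them on the chromosomes, Olfr866, Olfr389, Olfr391, Olfr490 and Olfr492 were marked on no array, as were 82.0% of all receptor probes. Olfr868, whose probe lies in row 26, was at 11.1, 15.6 and 9.77 with vehicle and at 32.3, 7.79, 26.1 and 10.55 with MPE.

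**Figure D4:**
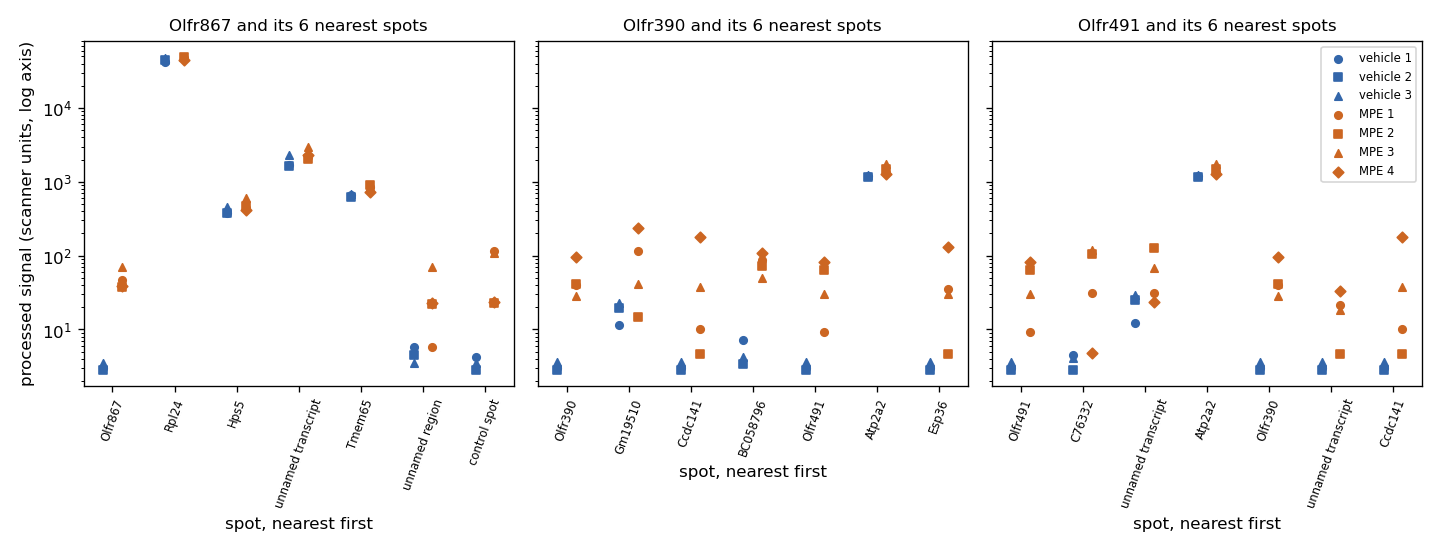
Processed signal in scanner units (log axis) of Olfr867, Olfr390 and Olfr491 and of the 6 spots nearest to each on the array, 1 point per array, with vehicle arrays blue and MPE arrays orange. Spots that are dark on the vehicle arrays are bright on some or all MPE arrays in each panel, and bright spots such as Atp2a2 differ by a far smaller factor.

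Control spots also differed in place between the groups. Of 308 negative-control spots, 154 of them in low rows, the MPE arrays had 30 marked values, 29 of them in low rows, and the vehicle arrays had 6, all in high rows. By array, 8, 4, 9 and 8 low-row negative controls were marked with MPE and 0, 0 and 0 with vehicle. A class of control spots named by sequence accession (2184 spots of 78 probes), picked because 1 of them lies beside Olfr867, was marked in 2.44%, 2.17% and 2.81% of cases in low rows of the vehicle arrays and in 6.15%, 6.88%, 7.33% and 7.06% of cases in low rows of the MPE arrays. In high rows the shares were 2.50%, 1.76% and 2.50% with vehicle and 0.741%, 0.741%, 0.649% and 1.85% with MPE. The remaining 1179 control spots, many of them for spiked-in RNA, were marked at 24.6% to 25.9% in low rows with vehicle and 29.0% to 31.6% with MPE, and in high rows at 26.8% to 27.8% and 24.3% to 24.5%. The low-row minus high-row share, MPE minus vehicle, was 5.84 points for the negative controls, 6.93 for other chemosensory receptors and 3.93 for all other non-control spots, against 6.14 for the odorant receptors. Each of the 3 comparisons gave an exact permutation p of 0.0286, with 4 of 4 MPE arrays above all vehicle arrays. Differences between these sets were not tested. A probe has the same place on all 7 arrays. Place went with the single-group marks, and slide row goes with treatment. The part of either in the signal of these probes was not tested.

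**Figure D5:**
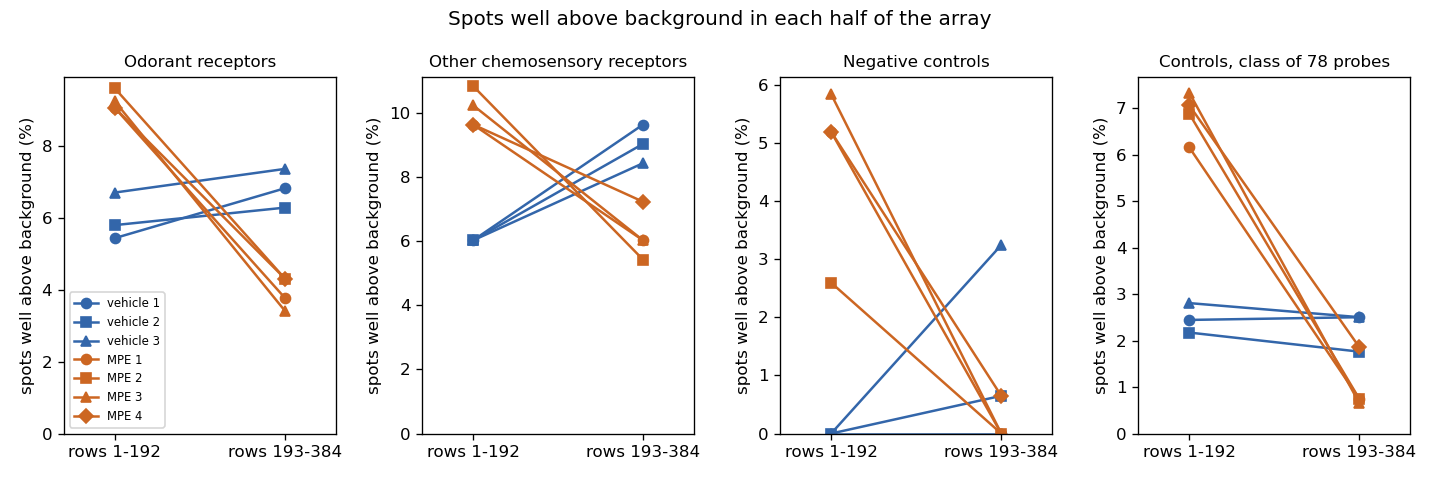
Share of spots well above background (%) in rows 1 to 192 and rows 193 to 384 on each array, for odorant receptors, other chemosensory receptors, negative controls and the class of control spots with 78 probes. In each panel the MPE arrays (orange) fall from low to high rows; negative controls in low rows are at 0 on every vehicle array.

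In the fit across all genes, 58 of the 197 member genes passed the filter of 3 marked arrays, and the other 141 member probes were not tested. The median log2 difference of the 58 was -0.10, and 19 stood higher and 39 lower. Limma's adjusted threshold was passed by 1 receptor in the higher direction, Olfr867, and by 0 in the lower direction, against 0.00453% and 0% of all genes. Olfr867 was the only gene called among the 22060, so the 0.00453% is this receptor itself. At an unadjusted limma p under 0.05 there were 3 higher and 5 lower, against 0.757% and 3.35% of all genes. The 5 lower became 10 with scaling to the array median, 9 with quantile normalization or the authors' value table, and 11 with normexp. Because Olfr867, Olfr390 and Olfr491 passed the filter only through the MPE arrays and were named for those values, nothing is read from the higher count. Olfr39 and Olfr159 (log2 difference -0.32 each) passed it only through the vehicle arrays. Olfr1441, among the 5 lower, was marked on 3 vehicle arrays and 1 MPE array. Nothing is therefore read from the lower counts or from the median of the 58 either. The call on Olfr867 was lost when vehicle 1 or vehicle 3 was left out (0 receptors called) and when background was corrected by normexp (log2 difference 0.75, 0 called). Without MPE 4, 2 receptors were called.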

How the data were processed

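Cy3-labelled cRNA made from 100 ng of RNA per sample was measured on 1-colour Agilent mouse arrays (384 rows, 164 columns), per the labels' protocols and the file headers. Spot intensities were deposited as scanner output, background-subtracted and detrended per the file headers, with flags for control, outlier and well above background spots. The headers give Feature Extraction 11.5.1.1, and the submitters' processing notes 10.5.1.1. The authors' value table holds log2 values and was used as an alternative. No other per-sample columns were used.

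Receptors were found by matching 32994 of 56605 probes to RefSeq symbols. Control spots and 611 outlier-flagged values were left out. Log2 intensities minus the array's 75th percentile entered limma (version 3.58.1, R 4.3.3), where lmFit and eBayes compared the groups with no covariate. Adjusted p-values follow Benjamini and Hochberg, with 0.05 as the threshold. A gene was represented by its probe with the highest mean among the 28874 probes marked on at least 3 arrays (22060 genes). A probe with an outlier-flagged value is not fitted, which concerns 7 members. Shares and counts were compared by two-sided exact permutation over arrays. The fit and the permutation test were tested on simulated data. Array number limits the precision.

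The members, the gene lists and the tests were chosen with earlier results of these data known. Genes were named if marked on all 7 arrays or on all arrays of a single group, if they had several probes, or if on the lists for roles outside the nose, signalling, receptor choice and cell-type markers. Olfr1204, Olfr938, Olfr43 and the spots beside the 3 named receptors were picked after their values were seen. Alternatives covered scaling, background, filters, variance, blocks, flags, the split of rows and each array left out.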

Additional observations from a re-analysis of the deposited data

Results flagged for a closer look

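In 40 receptor values checked for an MPE array lying far from the other 3, 2 did, which is the 2 that a rate of 1 in 20 gives by chance. Olfr287 was at 81.6 on MPE 3 and at 61.0 to 63.4 on the other MPE arrays. Olfr6 was at 59.1 on MPE 4 and at 40.4 to 47.8 on the others. For single receptors the check used scaled log2 signals, while the signals given here are unscaled.

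Negative-control spots, which carry no gene, were marked in low rows 7.25 times per MPE array on average, against 0 on the vehicle arrays.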

How the results depend on the processing

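The difference of 2 in marked receptor probes turned to -53.6 with the positive-and-significant flag (exact permutation p = 0.0286) and to -0.75 without Olfr867, Olfr390 and Olfr491 (exact p = 0.886). With 1 signal threshold for all arrays it was 21.3 (exact p = 0.0286), and with an array left out 0 to 5.5. The difference in low-row minus high-row share kept its direction in all 17 alternatives. It was 15.75 with the positive-and-significant flag and 9.13 with the middle rows left out (each exact p = 0.0286), 6.14 with the doubled exact p of 0.0571, 1.36 when columns replaced rows (exact p = 0.0571), 3.88 without the lowest 48 rows (exact p = 0.0286, added after seeing the data), and 5.87 to 6.32 with an array left out, where the smallest exact p possible is 0.0667 or 0.1. The 1 receptor called became 0 with normexp, with the filter on all 7 arrays (which drops Olfr867) and with slide column as a blocking term, a fit to which MPE 3, alone in its column, adds nothing. It became 2 with a trended robust variance and with array weights, and 0 to 2 with an array left out. Without any filter 566 receptors were called, 560 of them higher, of 1073 tested. In that fit most values lie at the floor, whose lowest value was 2.49 to 3.05 on vehicle and 4.10 to 4.85 on MPE arrays. Normexp gave Olfr867, Olfr390 and Olfr491 log2 differences of 0.75, 0.65 and 0.61. Olfr1368 turned to 0.0026 with the slide column block and without MPE replicate 3, and with an array left out it ran from -0.13 to 0.0026. The causes of these shifts were not tested, except where the construction shows them.

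The replicate block, to which MPE 4 adds nothing because its number has no vehicle array, called 0 receptors and had 13 lower at an unadjusted limma p under 0.05. Deviations of same-numbered arrays correlated at 0.25, 0.05 and 0.41, and not every array correlated best with its own number, so the numbers were not taken as pairing the samples. Scaling to the median moved the median of all genes from -0.02 to -0.09.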

Other observations

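Other chemosensory families were rarely marked on all 7 arrays. Among vomeronasal receptors this held for 9 of 173 Vmn1r and 1 of 106 Vmn2r probes, and among taste receptors for 2 of 35 Tas2r and 0 of 4 Tas1r probes. None of the 14 probes of trace amine-associated receptors was marked on all 7 arrays.

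Of 6 markers of supporting and basal cells of the olfactory epithelium, Ermn and Trp63 were marked on all 7 arrays, with Trp63 at 4378 to 4577 with vehicle and 4192 to 5016 with MPE. The other 4, Cyp2g1, Cyp1a2, Krt5 and Sox2, were marked on no array. Of 4 immune markers, Cd68, Itgam and Cd3e were marked on all 7, and Itgam was at 6395 to 6833 with vehicle and 5423 to 6210 with MPE (limma adjusted p = 0.984). Ptprc, a general marker of white blood cells, was marked on vehicle 1 only, at 21.0, and stood at 2.69 to 5.21 on the other arrays. The 4 stromal and endothelial markers were marked on all 7 arrays in 0 cases.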
